A study of Homo sapiens with 6 samples.

Results

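Expression of 9 histone acetylation genes was compared between WT and ARID1A-KO cells. The genes were chosen by name from the 57820 genes listed for every sample. They are EP300 and CREBBP of the CBP/p300 family, KAT2A and KAT2B of the GNAT family, KAT6A, KAT6B, KAT7 and KAT8 of the MYST family, and BRD2 of the BET family. All 9 were found by name and all 9 had enough counts to be tested.

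Histone acetyltransferases move an acetyl group from acetyl-CoA onto lysines of histone tails, and most of them work inside large complexes that bring them to promoters, enhancers or sites of DNA damage. EP300 and CREBBP acetylate histone H3 and H2B at enhancers and promoters, KAT2A and KAT2B acetylate H3 as part of the SAGA and ATAC complexes, and the MYST enzymes acetylate H3 or H4 together with BRPF, JADE, MSL or NSL scaffold proteins. BET proteins do not write the mark but bind acetylated lysines through their bromodomains and couple them to transcription. ARID1A is a DNA-binding subunit of the canonical SWI/SNF (BAF) chromatin remodeler, which works on acetylated chromatin.

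The cells were AID-DIvA, a derivative of the U2OS osteosarcoma cell line that carries the restriction enzyme AsiSI in an inducible and degradable form. Both groups were untreated, so the enzyme was not induced in any sample. The 3 WT samples kept ARID1A, and the 3 ARID1A-KO samples came from cells edited by CRISPR with crRNAs against ARID1A, both groups being numbered 3, 4 and 5. The knockout cells were grown as clones, but which clone was sequenced is not given in the sources used here. All 3 ARID1A-KO samples may therefore share a clone, and a difference between the clone and its parent line cannot be told apart from an effect of the genotype. The labels do not say whether the samples were separate cultures, while the study describes its replicates as independent experiments, and the p-values measure the spread between these samples. The protocol names a kit for total RNA, whereas the labels give the molecule as polyA RNA.

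ARID1A itself had CPM (the counts of a gene relative to the size of its library, after TMM scaling) of 166, 178 and 177 in WT samples 3, 4 and 5 and of 25.1, 27.5 and 25.2 in the ARID1A-KO samples. All 3 ARID1A-KO samples were far below the WT samples, and ARID1A fell by 2.74 on the log2 scale (SE 0.07, adjusted p = 9.66e-08, edgeR quasi-likelihood test). Reverse-stranded counts came to between 54512105 and 84088708 in a sample, and the genes described here had between 946 (KAT2B) and 28283 (BRD2) of them. The first principal component, with 75.1% of the variance, separated the genotypes, and on the second WT sample 4 and ARID1A-KO sample 5 stood apart from the other samples of their group. Of the marker genes, VIM, which marks mesenchymal cells, was abundant in both groups (2083 ± 181 TPM in WT and 3780 ± 221 TPM in ARID1A-KO cells, SD, n = 3). RUNX2, an osteoblast regulator, was at 8.03 ± 0.87 and 7.95 ± 2.29 TPM. TWIST1 was at or near 0, and COL1A2 was at 0.091 ± 0.016 and 0.064 ± 0.029 TPM. Epithelial markers summed to between 864 and 984 TPM in WT and between 608 and 669 TPM in ARID1A-KO samples, nearly all of it KRT8 and KRT18, while 6 blood cell markers summed to at most 2.40 TPM and 3 endothelial markers to at most 1.40 TPM. Mesenchymal markers summed to between 2894 and 3153 TPM in WT and between 4100 and 4512 TPM in ARID1A-KO samples, with VIM, COL1A1, COL5A1, SPARC and ALPL passing the test, the last 4 of them lower. The part of these shifts in the results below was not tested. In bulk RNA, fewer cells expressing a gene and less RNA per cell cannot be told apart.

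The differences of the 9 genes between genotypes were small. At an adjusted p under 0.05, KAT6B rose and KAT2B fell, and the other 7 genes did not pass the test. These 2 calls are 22.2% of the 9 genes, where 36.2% of the 19599 genes tested were called, 17.8% higher and 18.4% lower. The median log2 fold change of the 9 genes (ARID1A-KO over WT) was 0.029, and their median absolute log2 fold change was 0.13, beside 0.27 over all genes tested. The CPM of the genotypes did not overlap for 3 of the 9 genes, EP300, KAT2B and KAT6B, where 49.5% of all genes tested did not overlap. No gene of the 9 changed by 2-fold or more.

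**Figure D1:**
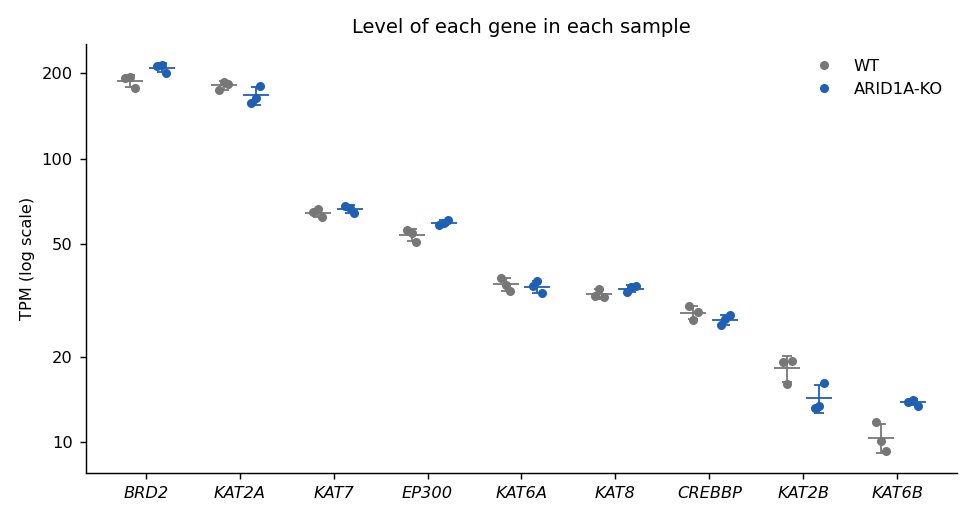
Level of each of the 9 genes in each sample, in TPM on a log axis, for WT (grey) and ARID1A-KO (blue). Points are samples, and bars give the mean and SD of the 3 samples. KAT6B is the gene whose means are farthest apart in proportion, with WT samples between 9.32 and 11.8 TPM and ARID1A-KO samples between 13.5 and 14.1 TPM.

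Levels of different genes were compared in TPM, which takes account of gene length. In WT cells, BRD2 had the highest level (188 ± 9.40 TPM, SD, n = 3) and KAT2A the next (181 ± 6.71 TPM), and their samples overlapped. KAT7 (64.4 ± 2.14 TPM) and EP300 (53.9 ± 2.66 TPM) followed, then KAT6A (36.0 ± 1.92 TPM) and KAT8 (33.3 ± 1.31 TPM), which overlapped with each other. CREBBP (28.7 ± 1.55 TPM), KAT2B (18.2 ± 1.85 TPM) and KAT6B (10.4 ± 1.25 TPM) were lowest, each apart from the next. The order of the means was the same in ARID1A-KO cells, at 209 ± 7.53 TPM for BRD2, 167 ± 12.1 for KAT2A, 66.4 ± 2.12 for KAT7, 59.5 ± 1.07 for EP300, 35.4 ± 1.75 for KAT6A, 34.8 ± 0.95 for KAT8, 27.1 ± 1.11 for CREBBP, 14.3 ± 1.61 for KAT2B and 13.8 ± 0.34 for KAT6B. Which neighbours in the order overlapped did differ. BRD2 stood clear of KAT2A in ARID1A-KO cells, while KAT2B and KAT6B, separated by a ratio of means of 1.75 in WT cells, overlapped at a ratio of 1.03. With counting that disregards strand, the order of BRD2 (177 ± 9.42 TPM) and KAT2A (187 ± 6.97 TPM) was the opposite in WT cells.

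EP300 and CREBBP encode p300 and CBP, paralogous coactivators that acetylate histone tails at active enhancers. EP300 had CPM of 120.3, 119 and 113 in the WT samples and of 129, 129 and 127 in the ARID1A-KO samples. All ARID1A-KO samples were above all WT samples, yet by a small step that did not pass the test (log2 fold change 0.13, SE 0.06, 95% interval 0.00085 to 0.25, adjusted p = 0.107). CREBBP had CPM of 101, 93.0 and 100.2 in the WT samples and of 89.4, 93.2 and 92.5 in the ARID1A-KO samples. The genotypes overlapped, and the difference did not pass (log2 fold change -0.098, SE 0.06, 95% interval -0.23 to 0.036, adjusted p = 0.229). The sign for CREBBP turned when the fold changes were adjusted for exonic length (0.13, adjusted p = 0.159), and the same adjustment brought EP300 past the threshold (0.26, adjusted p = 0.0105). Of the 176 genes tested within 5 Mb of the listed start of CREBBP, 120 were above 0, where 9973 of all 19599 genes tested were. Of these 176, 42 were called higher and 10 lower, beside 17.8% and 18.4% of all genes tested. Their median log2 fold change was 0.11. Measured against that median, CREBBP was at -0.20 (adjusted p = 0.0278, which leaves out the error of the median).

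KAT2A (GCN5) and KAT2B (PCAF) are alternative catalytic subunits of SAGA and ATAC, which acetylate the tail of H3. KAT2B had CPM of 24.1, 20.7 and 25.2 in WT samples 3, 4 and 5 and of 17.1, 17.2 and 19.9 in the ARID1A-KO samples. It was lower in all ARID1A-KO samples, the highest of which, sample 5, was close to the lowest WT sample, sample 4. KAT2B fell by 0.37 on the log2 scale (SE 0.10, 95% interval -0.59 to -0.14, adjusted p = 0.0173), from 23.4 ± 2.35 to 18.1 ± 1.58 CPM. This call was lost without ARID1A-KO sample 3 (-0.33, adjusted p = 0.0684), ARID1A-KO sample 4 (-0.33, 0.0728), WT sample 3 (-0.35, 0.0559) or WT sample 5 (-0.31, 0.0616). It was kept without WT sample 4 (-0.45, 0.00594), ARID1A-KO sample 5 (-0.44, 0.00995) or both (-0.52, adjusted p = 0.000778). In TPM the genotypes overlapped for KAT2B, with 19.2, 16.1 and 19.4 TPM in WT and 13.2, 13.5 and 16.1 TPM in ARID1A-KO samples.

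KAT2A, the more abundant of the pair, had CPM of 146, 161 and 159 in the WT samples and of 136, 139.6 and 148.7 in the ARID1A-KO samples. It was lower on average, with overlap between genotypes, and did not pass the test (log2 fold change -0.14, SE 0.06, 95% interval -0.28 to 0.0079, adjusted p = 0.127). KAT2B made up 9.15 ± 1.07% of the summed TPM of the pair in WT and 7.87 ± 0.31% in ARID1A-KO cells. Their summed level was 200 ± 5.62 TPM in WT and 181 ± 13.6 TPM in ARID1A-KO cells.

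**Figure D2:**
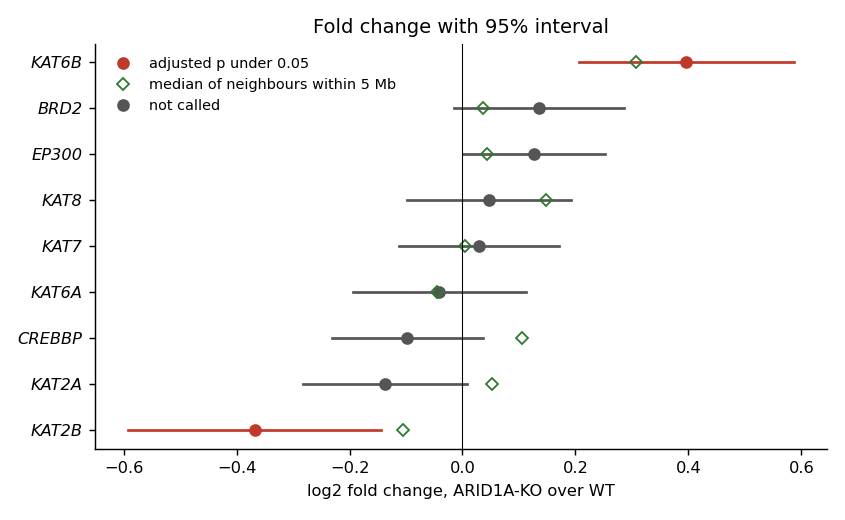
Log2 fold change of the 9 genes (ARID1A-KO over WT) with the 95% interval of the edgeR fit, in red for the genes with an adjusted p under 0.05, and the median log2 fold change of the genes tested within 5 Mb of each (open diamonds). The interval of KAT6B (0.21 to 0.59) includes the median of its neighbours (0.31), and that of KAT2B (-0.59 to -0.14) lies below the median of its neighbours (-0.11). The intervals are not adjusted for the number of genes tested, and neither KAT6B nor KAT2B passed the test against its neighbours.

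KAT6B (MORF) and KAT6A (MOZ) acetylate H3 in a complex with a BRPF protein, ING5 and MEAF6. KAT6B had CPM of 35.2, 30.9 and 28.8 in the WT samples and of 42.7, 42.9 and 39.4 in the ARID1A-KO samples. Every ARID1A-KO sample was higher than every WT sample, in CPM and in TPM, where the values were 11.8, 10.1 and 9.32 in WT and 13.9, 14.1 and 13.5 in ARID1A-KO samples. KAT6B rose by a log2 fold change of 0.40 (SE 0.08, 95% interval 0.21 to 0.59, adjusted p = 0.00567), from 31.6 ± 3.28 to 41.7 ± 1.94 CPM. The call was kept without each of the 6 samples in turn, with adjusted p from 0.00316 to 0.0274, and the log2 fold change was 0.60 with the length adjustment (adjusted p = 0.000581). KAT6A, in contrast, had CPM of 101, 96.8 and 93.6 in the WT samples and of 96.5, 99.6 and 87.0 in the ARID1A-KO samples. Its genotypes overlapped and its log2 fold change was -0.041 (SE 0.07, 95% interval -0.19 to 0.11, adjusted p = 0.675), with a sign that turned to 0.015 without ARID1A-KO sample 5, to 0.0038 against the median of its neighbours and to 0.14 with the length adjustment.

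Most of the genes around KAT6B moved in the same direction. Of 90 other genes tested within 5 Mb of its start on chromosome 10, 68 were above 0 and 22 below, where 9973 of all 19599 genes tested were above 0. Of these 90, 48 were called higher and 6 lower in ARID1A-KO cells, beside 17.8% and 18.4% of all genes tested. The median log2 fold change of the 90 genes was 0.31. Measured against this median, KAT6B was at 0.089 and did not pass the test (adjusted p = 0.458). Around KAT2B on chromosome 3, the median log2 fold change of the 36 genes tested was -0.11. Of these 36, 8 were called lower, beside 18.4% of all genes tested. By edgeR or DESeq2, 0 were called higher (1 higher at an unadjusted p under 0.05 in edgeR), beside 17.8% of all genes tested in the main fit. In that window, 27 genes were below 0 and 9 above, where 9626 of all 19599 genes tested were below 0. Against that median, KAT2B was at -0.26 and did not pass (adjusted p = 0.072). The medians of the neighbours of the other 7 genes lay between -0.045 (KAT6A) and 0.15 (KAT8).

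**Figure D3:**
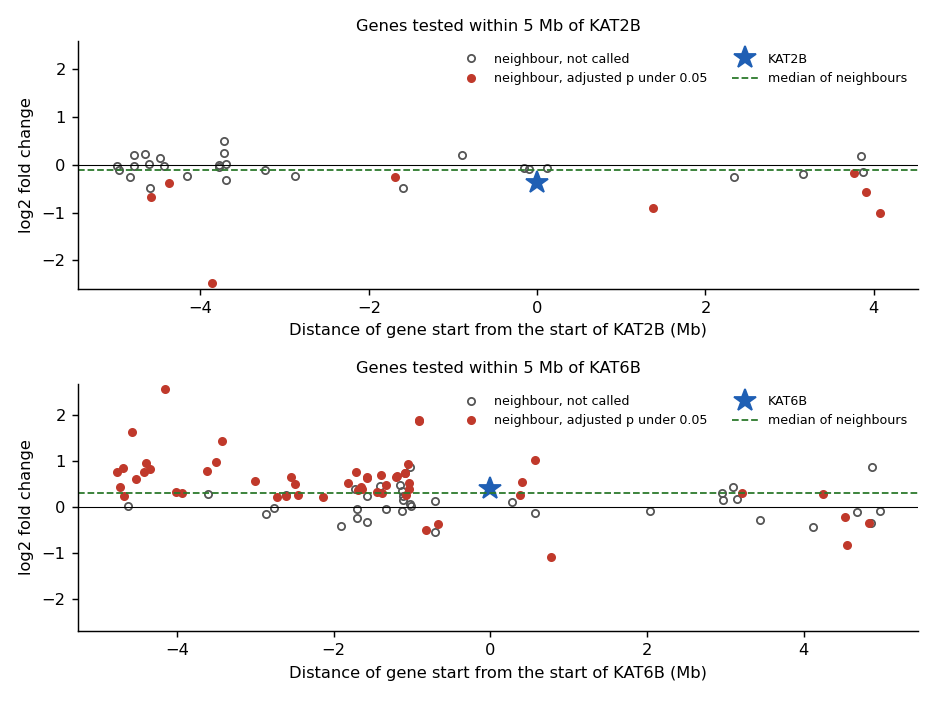
Log2 fold change (ARID1A-KO over WT) of the genes tested within 5 Mb of KAT2B (top) and KAT6B (bottom), against the distance of their start from the start of the gene in Mb. Filled red circles are genes with an adjusted p under 0.05, the star is KAT2B or KAT6B itself, and the dashed line is the median of the neighbours, at -0.11 and 0.31.

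KAT6B is also the gene of the 9 with an AsiSI recognition site beside its start. AsiSI cuts GCGATCGC, and the site is shown with 11 bases on each side because AID-DIvA cells carry the enzyme that recognizes it. It was looked for after the expression values were seen, and in these untreated cells the enzyme was not induced. The breaks that the study lists as analysed do not include this site, and whether AsiSI cuts it was not tested. In GRCh37 the run lies at chr10:76584892-76584921 on the plus strand, with the recognition site in capitals.
AsiSI site beside KAT6B: ccaaaactgccGCGATCGCccgaaggcgca
The site ends 430 bp upstream of the gene start in the deposited tables, position 76585340. In the GENCODE annotation for GRCh37 (v44lift37) it falls inside KAT6B, in exon 1 of the transcripts KAT6B-222 and KAT6B-224, within the 5′ UTR. The genome holds 1216 such sites on the autosomes, X and Y, and for the other 8 genes the nearest lay between 102441 bp (KAT7) and 5953800 bp (KAT2B) from the gene start. In RefSeq promoter windows of GRCh38.p14 (250 bases before to 50 after a start), the 8 letters occurred in 73 of 34796 windows (0.21%). Of the 9 genes, 7 matched that table with 13 windows in all, KAT6A and KAT8 being without a match, and a window of KAT6B was the 1 that held the site. The GC box GGGCGG, searched on both strands, was in 9 of the 13 windows, beside 44.9% of all windows. These 9 belonged to 4 of the 7 genes (BRD2, CREBBP, KAT2B and KAT6B), some of which had several windows. The KAT2B window had a GC content of 80.3% and those of KAT6B of 58.7%, 69.0% and 80.7%, where the median over all windows was 58.7%. Genes that were not called had high values as well, at 75.3% for EP300 and 70.3% and 82.0% for CREBBP. KAT2A was at 62.0%, KAT7 at 57.7% and the windows of BRD2 between 50.3% and 71.7%. Whether GC content has a part in the 2 calls was not tested.

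KAT7 (HBO1) acetylates H3 or H4 with BRPF or JADE scaffolds and is needed for the licensing of replication origins. Its CPM was 87.9, 92.2 and 87.2 in the WT samples and 95.3, 92.2 and 85.4 in the ARID1A-KO samples. These ranges overlapped, at a log2 fold change of 0.029 (SE 0.06, 95% interval -0.11 to 0.17, adjusted p = 0.754), which turned to -0.0036 without ARID1A-KO sample 3. KAT8 (MOF) acetylates H4 within the MSL and NSL complexes. Its CPM was 31.7, 34.5 and 32.4 in the WT samples and 33.5, 34.7 and 33.6 in the ARID1A-KO samples. The samples overlapped again, and the log2 fold change was 0.047 (SE 0.06, 95% interval -0.099 to 0.19, adjusted p = 0.613). Of its neighbours, 106 of 150 were above 0, where 9973 of all 19599 genes tested were. Against these neighbours, KAT8 was at -0.10 (adjusted p = 0.263). The 95% intervals of KAT7 and KAT8 together reach from -0.11 to 0.19.

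BRD2 is a BET protein that binds acetylated H4 through its tandem bromodomains. BRD2 had CPM of 316, 325 and 300.2 in the WT samples and of 356, 357 and 321 in the ARID1A-KO samples. ARID1A-KO sample 5 fell within the WT range, and the log2 fold change of 0.14 did not pass the test (SE 0.07, 95% interval -0.016 to 0.29, adjusted p = 0.146). Without that sample BRD2 was called higher (0.18, adjusted p = 0.0471), and also without it and WT sample 4 (0.21, adjusted p = 0.0306). In TPM the genotypes did not overlap, at 193, 194 and 177 in WT and 212, 214 and 200.3 in ARID1A-KO samples. BRD2 shares 435 bp with HLA-DMA and 789 bp with XXbac-BPG181M17.6 on the opposite strand, and 655 bp with BRD2-IT1 on its own strand. The counts of BRD2 without regard to strand were between 89.65% and 91.53% of its reverse-stranded counts. Which overlap this came from was not tested. Genes overlapping the other 8 had few counts next to theirs, apart from FAM117A, which shares 626 bp with KAT7 on the opposite strand and had between 260 and 449 reverse-stranded counts.

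Within each sample, the log2 ratio of TPM between paralogs gives their balance independently of the scaling of the sample. The ratio of EP300 to CREBBP was 0.90, 1.01 and 0.82 in the WT samples and 1.18, 1.12 and 1.11 in the ARID1A-KO samples. All ARID1A-KO ratios were above all WT ratios, with means of 0.91 ± 0.096 and 1.14 ± 0.036 (two-sided exact permutation test, p = 0.1, the smallest that 3 against 3 samples allow). The ratio of KAT6A to KAT6B was 1.69, 1.83 and 1.88 in the WT samples and 1.35, 1.39 and 1.32 in the ARID1A-KO samples. It was lower in all ARID1A-KO samples, with a difference of -0.44 between the means of 1.80 ± 0.095 and 1.36 ± 0.037 (exact permutation p = 0.1). KAT6B made up 22.3 ± 1.15% of the summed TPM of the pair in WT and 28.1 ± 0.51% in ARID1A-KO cells. For KAT2A over KAT2B the ratios of 3.18, 3.54 and 3.24 in WT overlapped with those of 3.57, 3.60 and 3.48 in ARID1A-KO samples, and the difference of the means was 0.23 (exact permutation p = 0.2). After Benjamini-Hochberg adjustment over these 3 ratios, p was 0.15 for the EP300 and KAT6A ratios and 0.2 for the KAT2A ratio, and with 3 samples a group no value under 0.05 was possible.

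**Figure D4:**
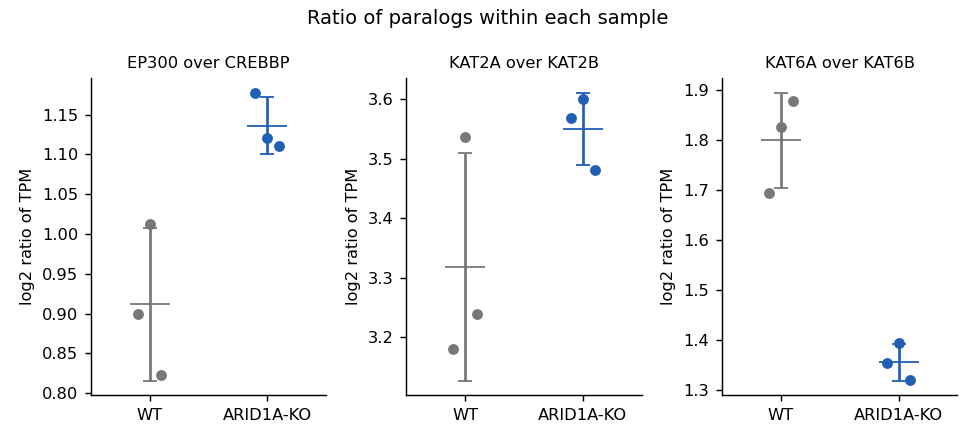
Log2 ratio of the TPM of paralogs within each sample, for EP300 over CREBBP, KAT2A over KAT2B and KAT6A over KAT6B. Points are samples and bars are the mean and SD of 3 samples, on axes that do not start at 0. The genotypes do not overlap for EP300 over CREBBP and for KAT6A over KAT6B, and WT sample 4 lies among the ARID1A-KO samples for KAT2A over KAT2B.

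The other genes of the pathway were taken from 9 lists of complex partners, readers and acetyl-CoA enzymes. Of their 116 genes with enough counts, 12 were higher and 17 lower, together 25%, beside 36.2% of all genes tested, with a median log2 fold change of -0.016 beside 0.0066 over all genes tested. Of the 28 called genes named below, 9 passed in each of 15 alternative fits, and 8 of these 9 were lower. Without each sample in turn, the number called in the lists ran from 17 (without ARID1A-KO sample 4) to 28, and was 19 without ARID1A-KO sample 3 or WT sample 3. The share over all genes tested is not given for these alternative fits, so their counts cannot be compared with the 36.2% of the main fit.

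The partners of KAT2A and KAT2B in SAGA and ATAC had 3 of 23 genes higher and 0 lower by edgeR or DESeq2 (5 lower at an unadjusted p under 0.05 in edgeR), so that 13% were called beside 36.2% of all genes tested, at a median of -0.048. The histone fold subunit TAF10 was higher by 0.29 (SE 0.07, adjusted p = 0.0133), but not against its neighbours (0.14, adjusted p = 0.165). TADA3, which anchors the acetyltransferase module, was higher by 0.31 (SE 0.08, adjusted p = 0.0191), a call lost without ARID1A-KO sample 3, ARID1A-KO sample 4 or WT sample 3 (adjusted p from 0.0508 to 0.0829) and against its neighbours (0.0753). TAF9 was higher by 0.18 (SE 0.06, adjusted p = 0.037), and of the 6 fits that left a sample out only the fit without ARID1A-KO sample 5 kept this call, the others having adjusted p from 0.0702 to 0.137. The TAF9 call was also lost with the length adjustment (0.101) and without the filter on low counts (0.0875).

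Of 9 scaffold and ING partners of KAT6A, KAT6B and KAT7, 2 fell and 0 rose by edgeR or DESeq2 (2 higher at an unadjusted p under 0.05 in edgeR), with 22.2% called and a median of -0.023. JADE1, a scaffold that directs KAT7 to histone H4, fell by 0.65 on the log2 scale (SE 0.06, adjusted p = 5.21e-05), from 111 ± 5.58 to 70.7 ± 0.85 CPM. ING4, a subunit of KAT7 complexes that binds methylated H3, fell by 0.49 (SE 0.08, adjusted p = 0.00138), from 20.9 ± 0.81 to 14.9 ± 0.93 CPM. Both calls were kept in all 15 alternatives, but JADE1, whose neighbours had a median of -0.35, was at -0.30 against them (adjusted p = 0.00481). Of 12 MSL and NSL partners of KAT8, MSL2, the ubiquitin ligase of the MSL complex, was the 1 called gene (8.33%, list median -0.044), with 0 higher by edgeR, by DESeq2 or at an unadjusted p under 0.05. MSL2 fell by 0.57 (SE 0.07, adjusted p = 0.00019), where the median of its neighbours within 5 Mb was -0.53, and against them its change was -0.043 (adjusted p = 0.655).

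Partners and inhibitors of p300 and CBP were called in 6 of 12 cases, 3 higher and 3 lower (50% called beside 36.2% of all genes tested, median 0.077). CREB1, the cAMP-responsive factor that recruits CBP, fell by 0.35 (SE 0.06, adjusted p = 0.00206) and was called in all 15 alternatives, at -0.21 with the length adjustment (0.0368) and -0.22 against its neighbours (0.0234). Its coactivator CRTC1 fell by 0.73 (SE 0.14, adjusted p = 0.00362), with neighbours at a median of -0.37 and a change against them of -0.36 (adjusted p = 0.0826). EID1, an inhibitor of p300 activity, fell by 0.24 (SE 0.06, adjusted p = 0.015), a call lost without ARID1A-KO sample 3 (adjusted p = 0.0551) or ARID1A-KO sample 4 (0.0803). The 3 rises had the highest adjusted p of the 6. CITED1, a low-level transactivator that binds p300 and CBP, rose from 1.35 ± 0.33 to 2.204 ± 0.17 CPM (log2 fold change 0.70, SE 0.19, adjusted p = 0.0194) and lost the call without ARID1A-KO sample 4, WT sample 3 or WT sample 5 (adjusted p from 0.0668 to 0.0725). NCOA2 (0.19, adjusted p = 0.0346) kept its call among the 6 fits only without ARID1A-KO sample 5, the others having adjusted p from 0.0513 to 0.145, and not without the filter on low counts (0.113), and was at 0.33 with the length adjustment (0.00346). CRTC2 (0.18, adjusted p = 0.041) lost its call when any sample was left out (0.0648 to 0.172) and in 6 of the other 9 alternatives, DESeq2 (0.0555) among them.

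**Figure D5:**
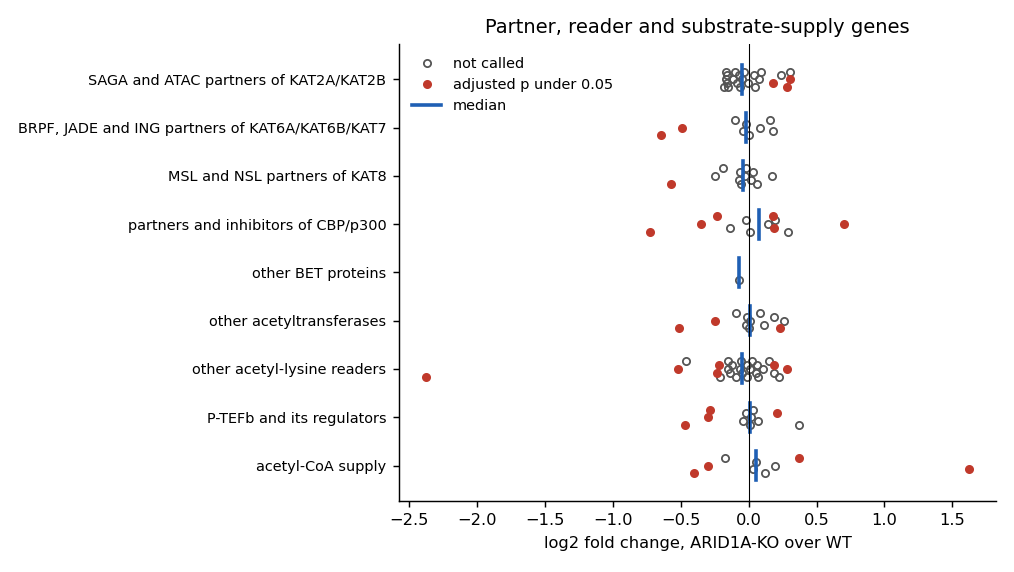
Log2 fold change (ARID1A-KO over WT) of each tested gene of the 9 partner, reader and acetyl-CoA lists. Filled red circles have an adjusted p under 0.05 and the blue bar is the median of the list, the entry for the other BET proteins being BRD3 alone. The other list medians lie between -0.048 (other acetyl-lysine readers) and 0.077 (partners and inhibitors of CBP/p300), and the genes farthest from 0 are MLLT3 at -2.38 and CRAT at 1.63.

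Of the other BET genes, BRD3, a bromodomain reader and paralog of BRD2, had CPM of 28.3, 34.4 and 29.3 in the WT samples and of 29.8, 32.6 and 25.1 in the ARID1A-KO samples. The genotypes overlapped and BRD3 did not pass the test (log2 fold change -0.075, SE 0.11, 95% interval -0.32 to 0.17, adjusted p = 0.638). Its sign turned without ARID1A-KO sample 5 (0.025) or WT sample 4 (0.015). Per length, BRD3 was at 19.6 ± 2.0 TPM in WT and 18.8 ± 2.10 TPM in ARID1A-KO cells, well below BRD2. BRDT, the testis-specific paralog, had too few counts to be tested.

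P-TEFb and its regulators, on which BET proteins act, had 1 gene higher and 3 lower of 11 (36.4%, median 0.0075). The elongation factor ELL2 fell by 0.47 (SE 0.08, adjusted p = 0.00165), in all 15 alternatives. Its paralog ELL fell by 0.30 (SE 0.09, adjusted p = 0.0286), but stood at 0.070 against its neighbours and lost the call without ARID1A-KO sample 3, ARID1A-KO sample 5, WT sample 4 or WT sample 5 (adjusted p from 0.0741 to 0.0813). The scaffold AFF1 fell by 0.28 (SE 0.06, adjusted p = 0.00817), a change that was -0.12 with the length adjustment (adjusted p = 0.235) and -0.14 against its neighbours (0.124). CDK9, the kinase itself, rose by 0.21 (SE 0.06, adjusted p = 0.0196), which was lost without ARID1A-KO sample 4 (0.0983) or WT sample 3 (0.0798) and with the length adjustment (0.0799).

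Among 27 other readers of acetyl-lysine, 2 rose and 4 fell (22.2%, median -0.048). MLLT3 (AF9), a YEATS-domain reader of the super elongation complex, fell by 2.38 (SE 0.10, adjusted p = 7.39e-07), from 20.4 ± 1.80 to 3.92 ± 0.067 CPM. Its neighbours also were lower, with a median of -1.42, and against them MLLT3 was at -0.95 (adjusted p = 0.000116). The bromodomain gene BAZ2B fell by 0.52 (SE 0.06, adjusted p = 0.000262) and was called in all 15 alternatives, at -0.26 with the length adjustment (adjusted p = 0.0149). MLLT1, the paralog of MLLT3, fell by 0.23 (SE 0.08, adjusted p = 0.0425), which was lost without ARID1A-KO sample 3, ARID1A-KO sample 5, WT sample 4 or WT sample 5 (0.064 to 0.156) and against its neighbours (-0.094, adjusted p = 0.388). The 2 genes that rose belong to SWI/SNF complexes that lack ARID1A. PBRM1, also of such a complex and named here after its values were seen, did not pass (log2 fold change -0.048, adjusted p = 0.637). DPF1 (0.18, adjusted p = 0.214), DPF2 (-0.010, 0.932) and DPF3 (-0.46, 0.402), of the canonical complex and also named afterwards, did not pass either. Whether genes of these complexes differ as a set was not tested. BRD9, of the non-canonical complex, rose by 0.28 (SE 0.08, adjusted p = 0.0267) and BRD7, of the PBAF complex, by 0.19 (SE 0.06, adjusted p = 0.027). BRD9 lost the call without ARID1A-KO sample 3, ARID1A-KO sample 4, WT sample 3 or WT sample 5 (0.0729 to 0.0817) and against its neighbours (0.12, adjusted p = 0.305). BRD7 lost it without each sample other than ARID1A-KO sample 5 (0.0553 to 0.101), without WT sample 4 and ARID1A-KO sample 5 together (0.0515) and without the filter on low counts (0.0731). It was at 0.30 with the length adjustment (0.00574), and against its neighbours, at a median of 0.32, BRD7 was at -0.13 (adjusted p = 0.101).

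Other acetyltransferases had 1 gene higher and 2 lower among 12 tested entries, NAA60 being listed under 2 identifiers (25.0%, median 0.0071). CLOCK, the circadian factor with acetyltransferase activity, fell by 0.51 (SE 0.07, adjusted p = 0.000641) and was called in all 15 alternatives, at -0.33 with the length adjustment (0.00681). NAA40, which acetylates the N-terminus of H4 and H2A, fell by 0.25 (SE 0.06, adjusted p = 0.0145), a call lost without ARID1A-KO sample 4 (0.0664). ELP3, the catalytic subunit of Elongator, rose by 0.23 (SE 0.08, adjusted p = 0.0482) and kept the call only without ARID1A-KO sample 5 or WT sample 4 of the 6, the others having adjusted p from 0.127 to 0.176, and not with RLE scaling (0.0517), the length adjustment (0.0587) or against its neighbours (0.067).

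The supply of acetyl-CoA, the donor for all 8 enzymes, had 2 of 9 genes higher and 2 lower (44.4%, median 0.056). CRAT, the carnitine acetyltransferase that buffers acetyl-CoA, rose from 1.56 ± 0.23 to 4.80 ± 0.51 CPM (log2 fold change 1.63, SE 0.16, adjusted p = 7.23e-05), in all 15 alternatives. ACSS2, which makes acetyl-CoA from acetate in the nucleus and cytosol, rose by 0.37 (SE 0.09, adjusted p = 0.0101), and by 0.16 against its neighbours (adjusted p = 0.214). PDHB, a subunit of mitochondrial pyruvate dehydrogenase, fell by 0.30 (SE 0.07, adjusted p = 0.00747), in all 15 alternatives. SLC33A1, the acetyl-CoA transporter of the endoplasmic reticulum, fell by 0.40 (SE 0.07, adjusted p = 0.00162), where its neighbours were at a median of -0.38 and its change against them was -0.023 (adjusted p = 0.826).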

How the data were processed

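Untreated AID-DIvA cells, 3 WT and 3 ARID1A-KO samples, were profiled by RNA-seq with read pairs of 100 bp. STAR was used by the authors for alignment to GRCh37 (Roddy workflow), and the deposited values are unnormalized whole-number featureCounts counts, given by strand and for both strands. They also deposited TPM, scaled so that autosomal genes sum to about 1000000. Forward-strand counts were between 5.83% and 6.15% of reverse-stranded counts, so the reverse-stranded columns were used. Groups were taken from the sample labels.

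Counts were filtered with filterByExpr, scaled by TMM and compared with edgeR's quasi-likelihood test (trended dispersion) in edgeR 4.0.16 under R 4.3.3, over all 19599 genes tested, with Benjamini-Hochberg adjustment and a threshold of 0.05. Ratios of TPM were compared with exact permutation tests in SciPy 1.17.1. The fits were tested on simulated data. Not every gene considered for the lists is reported here. The 9 genes and the lists were chosen with earlier results of these data known. Named besides the 9 genes and ARID1A are BRD3 and BRDT and up to 3 called rises and 3 called falls per list with a mean log2 CPM over 0. PBRM1 and the DPF genes were named after their values were seen. Neighbours are the genes tested within 5 Mb of a gene's listed start coordinate, and the change against neighbours subtracts their median in the edgeR fit. That median comes from the same samples and is entered as a fixed value, so every adjusted p against neighbours leaves out its error.

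The alternatives were counts or TPM without regard to strand, RLE scaling, DESeq2 1.42.0, a minimum of 10 counts in each of the samples, no filter at all, a block for the replicate number, each sample left out, loess offsets (span 0.3) on exonic length, the neighbour offset, an adjusted p under 0.01, and for TPM ratios 1 added before the log2 or TMM CPM. Leaving out WT sample 4 and ARID1A-KO sample 5 together was added after seeing the data.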

Additional observations from a re-analysis of the deposited data

How the results depend on the processing

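With the neighbour offset, 1 of the 9 genes was called (CREBBP, lower), and at an adjusted p under 0.01 also 1 (KAT6B). Without a sample in turn, between 1 and 3 were called, the count being 1 without ARID1A-KO sample 3, ARID1A-KO sample 4, WT sample 3 or WT sample 5 and 3 without ARID1A-KO sample 5. It was 3 with the length offset and without WT sample 4 and ARID1A-KO sample 5 together, an alternative chosen after seeing the data, and 2 under the other settings. The 29 calls of the partner lists became 13 at an adjusted p under 0.01 (1 higher, 12 lower) and ran from 17 (without ARID1A-KO sample 4) to 28 without a sample in turn. They were split 12 higher and 17 lower, 17 and 16 with the length offset, and 6 and 14 with the neighbour offset. For settings other than the main fit, the share called over all genes tested is not given. The counts and splits of the 9 genes and the lists can therefore not be read as particular to them.

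Signs turned for CREBBP with the length offset (0.13), for KAT6A with the length offset (0.14), the neighbour offset (0.0038), without ARID1A-KO sample 5 (0.015) and without the 2 libraries (0.011), and for KAT7 without ARID1A-KO sample 3 (-0.0036). Without a sample in turn, KAT6A ran from -0.080 to 0.015, KAT7 from -0.0036 to 0.074 and BRD3 from -0.16 to 0.025. With the neighbour offset they turned for KAT8 (-0.10), BRD7 (-0.13) and ELL (0.070). BRD3 turned without the 2 libraries (0.11), ARID1A-KO sample 5 (0.025) or WT sample 4 (0.015). The log2 ratio of EP300 to CREBBP (0.18 to 0.28), KAT2A to KAT2B (0.16 to 0.34) and KAT6A to KAT6B (-0.50 to -0.40) kept its direction in each of 10 alternatives. The length and neighbour offsets, which moved the fold changes of these genes, were not applied to the ratios. Against their neighbours, KAT6A was at 0.0038 and KAT6B at 0.089. ARID1A passed in each of 16, at -2.80 to -2.62. The causes were not tested.

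Same-numbered samples did not deviate together in every case (r = -0.18 for number 3, 0.27 for 4 and 0.18 for 5), so the numbers were not taken to pair the samples. With the replicate number as a block, ARID1A was at -2.74, the same count of 2 of the 9 genes and 32 genes of the lists were called (14 higher, 18 lower), and the 3 paralog ratios kept their mean differences of 0.22, 0.23 and -0.44, each with an exact permutation p of 0.25, the smallest that 3 pairs allow. Not every sample correlated best with its own number.

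The limits are 3 samples a genotype, the number of knockout clones, which is not given, and 95% intervals that for the 7 genes not called reach down to -0.28 and up to 0.29 on the log2 scale. Bulk RNA levels say nothing about protein or about acetylation itself, neither of which was analysed here.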
